A study of Mus musculus with 4 samples.

Results

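Dense clusters of Runx3 peaks are stretches of the mouse genome in which 4 or more Runx3-bound regions follow each other with no more than 12.5 kb between one peak's end and the next peak's start. They were found by chaining all 15121 peaks of the deposited Runx3 ChIP-seq list along chromosomes 1 to 19 and X of the mm9 genome. In all, 1805 peaks, 11.9% of the list (95% Wilson interval 11.4 to 12.5%, counting error only), fell into 378 such clusters. The chaining used the positions of the called peaks, so the number of clusters, their size and their scores are a description of 1 peak list and carry no test.

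The list was called on splenic CD4+ dendritic cells (DC), CD11chiMHCII+CD4+ cells sorted by flow cytometry after magnetic enrichment for CD11c. Chromatin of 2 Runx3 immunoprecipitates, made with a polyclonal anti-Runx3 antibody, was compared with 2 input samples, and the labels give about 15 mice as the source of the cells. The label of 1 input gives the strain as C57BL/7, whereas the other 3 samples are labelled C57BL/6. No genotype other than the strain, no treatment and no age is given in the labels, and all samples were used as 1 comparison of immunoprecipitate over input. The peaks were called once on the pooled samples, so no value per replicate exists and no spread between replicates can be given. Besides its position, a peak carries a deposited score whose unit is not stated and which is used here only to order and sum peaks. The files hold no read counts, so the depth behind a peak is unknown. A peak list holds no expression values, so the sorted cell type could not be checked against its marker genes here.

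Runx3 is a transcription factor of the Runt family. Together with its partner CBFβ it binds DNA at a short motif whose core is commonly written TGTGGT, and several such sites can be spread over the promoter, the introns and the flanks of 1 gene. Conventional DC take up antigen, load peptides on major histocompatibility complex (MHC) molecules and present them to T cells, and the CD4+ subset is known for presentation on MHC class II.  No expression was measured in these files.

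The hexamers that occur in the strongest peaks of some of the leading clusters are shown first, because the chaining rule did not use the sequence. They are a selection from the clusters with the most peaks or the highest summed scores, and the strongest peaks at Nr4a1, Cd97, BC013712 and Atp5d held no TGTGGT. In the lines below the hexamer lies 310 bp from the peak centre at Rac2/Cyth4, 242 bp at Asb2 and 131 bp at Pebp4/Egr3. It lies within 51 bp of the centre in the other lines. Each line gives the part of the highest-scoring peak around its TGTGGT nearest the peak centre, read from the plus strand of mm9, with TGTGGT or its reverse complement ACCACA in capitals.
H2-Aa/H2-Eb1, chr17:34433025-34433090: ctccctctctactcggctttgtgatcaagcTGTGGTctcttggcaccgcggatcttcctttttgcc
Ly9/Slamf7, chr1:173537484-173537513: ggagatgcacttACCACAacttcctgaagt
Eif2c2, chr15:72992558-72992623: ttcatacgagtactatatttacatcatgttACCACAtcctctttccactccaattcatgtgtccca
Mcl1, chr3:95456332-95456397: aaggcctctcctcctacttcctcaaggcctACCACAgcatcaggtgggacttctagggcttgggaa
Rac2/Cyth4, chr15:78419988-78420053: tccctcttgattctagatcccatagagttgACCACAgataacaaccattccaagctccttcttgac
Mapk14, chr17:28839826-28839891: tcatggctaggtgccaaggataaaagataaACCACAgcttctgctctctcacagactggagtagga
Asb2, chr12:104579835-104579900: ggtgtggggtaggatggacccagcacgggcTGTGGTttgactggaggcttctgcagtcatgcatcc
Prkch, chr12:74699354-74699419: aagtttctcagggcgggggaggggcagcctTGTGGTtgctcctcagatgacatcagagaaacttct
Tbc1d4, chr14:101903907-101903972: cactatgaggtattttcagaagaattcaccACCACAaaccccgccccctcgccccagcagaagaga
Pebp4/Egr3, chr14:70466067-70466132: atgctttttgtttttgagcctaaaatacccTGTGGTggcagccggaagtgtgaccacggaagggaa
Dmwd/Dmpk, chr7:19663249-19663278: tccctcccggccTGTGGTtgcctgctcctc

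The clusters became rarer with size. The list held 7776 single peaks, 1888 chains of 2 peaks and 588 chains of 3, then 218 clusters of 4 peaks, 91 of 5, 34 of 6, 15 of 7, 14 of 8, 3 of 9 and 3 of 10. Clusters spanned 3.29 to 58.2 kb (median 18.4 kb), of which the peaks themselves covered a median of 11.6%. Together they took up 7.29 Mb, 0.276% of the length of chromosomes 1 to 19 and X, and held 12.7% of the summed score of the list. The 1427 gaps within clusters had a median of 3654 bp. Of these, 103 were under 300 bp and 165 were over 10 kb. When peaks closer than 300 bp were joined first, 334 clusters remained.

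**Figure D1:**
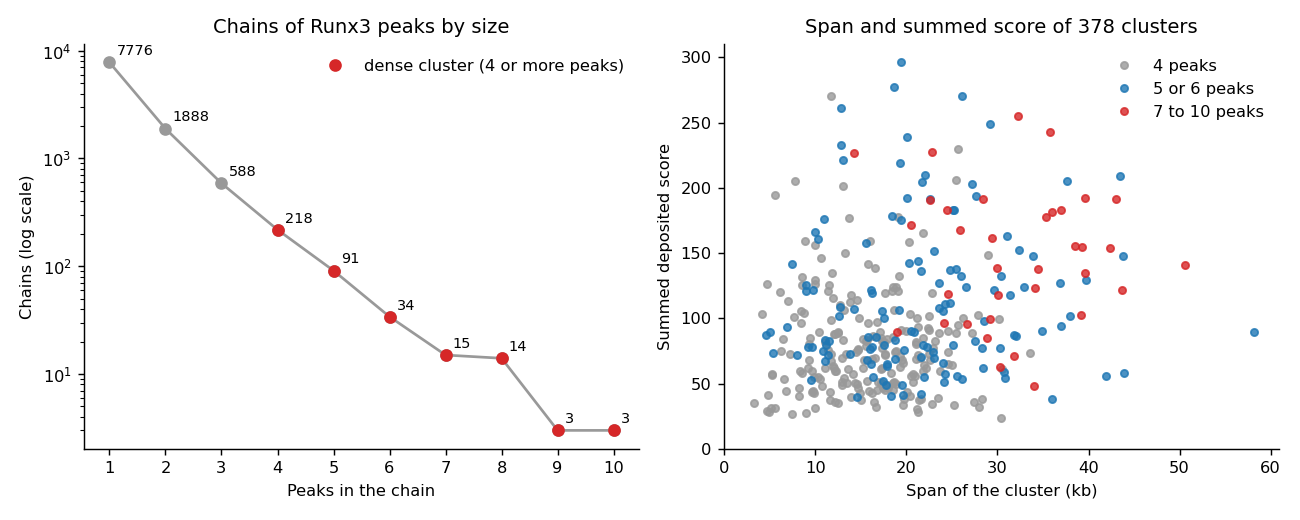
Left, number of chains (log scale) by the number of peaks in the chain, with dense clusters in red. Right, span in kb against summed deposited score for each of the 378 clusters, colored by number of peaks. Chains fell in number from 7776 single peaks to 3 chains of 10, and clusters of 7 to 10 peaks were spread over low and high summed scores.

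At the edge of the rule, the largest gap that was joined anywhere in the list was 12497 bp and the smallest that was not joined was 12507 bp. For 66 of the 588 chains of 3, the next peak lay within 15 kb. Just outside the rule, the chains of 3 with the highest summed scores lay at Glipr1 (336.39), Psma6 (319.04) and Runx1 (260.55), whereas the highest sums among the clusters of 4 were 270.58 at Dmwd and Dmpk, 229.57 at Dennd4a and 205.61 at Rere.

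A cluster was seldom a row of equal peaks. The strongest peak of a cluster had a median score of 37.1 and the weakest a median of 5.36. Over the list the median was 12.1 and the quartiles were 7.2 and 23.2. The strongest peak held a median of 43.0% of its cluster's summed score. The highest and the lowest of several scores differ by construction, and no random sets of peaks were drawn for comparison. Whether scores were more uneven within clusters than among other peaks of the list was therefore not tested. In 83 clusters no peak reached the upper quartile of the list (23.2), and in 18 none reached the median. All peaks were at or above the median in 8 clusters. Of the 100 highest scores of the list, 9 were of member peaks, close to the 11.9% of the list that the members make up. The median score was 12.7 over clustered peaks, 12.4 over peaks in chains of 2 or 3, and 11.96 over single peaks.

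The cluster with most peaks and the highest summed score among the 3 with 10 peaks lay between the MHC class II genes H2-Aa and H2-Eb1, which encode an alpha and a beta chain of the molecules that present antigen to CD4+ T cells. It spanned 24.5 kb (chr17:34419960-34444410) and had a summed score of 182.85. Its 4 strongest peaks stood together upstream of H2-Aa, at 3998, 5950, 7167 and 8310 bp from the start, and scored 31.34, 38.11, 28.55 and 38.99. The peaks at the transcription start sites (TSS) were weaker, with 3.39 at 177 bp upstream of H2-Aa and 4.79 at 29 bp inside H2-Eb1. The remaining peaks scored 11.96 in exon 4 of H2-Aa, 7.84 at 4525 bp upstream of H2-Eb1, and 14.2 and 3.68 in intron 1 of H2-Eb1. The peak of 14.2 also lay within 1 kb of a TSS. This was the only cluster of 10 that still held at least 4 chained peaks when only scores at or above the upper quartile were kept.

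A pair of further clusters lay in the same part of chromosome 17. A cluster of 4 peaks (chr17:34385768-34400298, summed score 49.43) reached from H2-Ob to the promoter of H2-Ab1, which encodes a class II beta chain. Its highest score, 29.48, was at 5382 bp upstream of H2-Ab1, and its peak 216 bp upstream of the start scored 4.23. The gap between this cluster and the one at H2-Aa was 19.7 kb. The other cluster of 4 (chr17:34324210-34341630, summed score 46.39) covered the antigen peptide transporter genes Tap1 and Tap2 and the immunoproteasome genes Psmb8 and Psmb9. Over the 248 kb from H2-Oa to H2-Eb2 the list held 29 peaks, 18 of them in these 3 clusters. The genes H2-DMa, H2-DMb1, H2-DMb2, H2-Oa and H2-Eb2 of the same region overlapped no cluster, and H2-DMb1 and H2-Eb2 no peak at all.

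**Figure D2:**
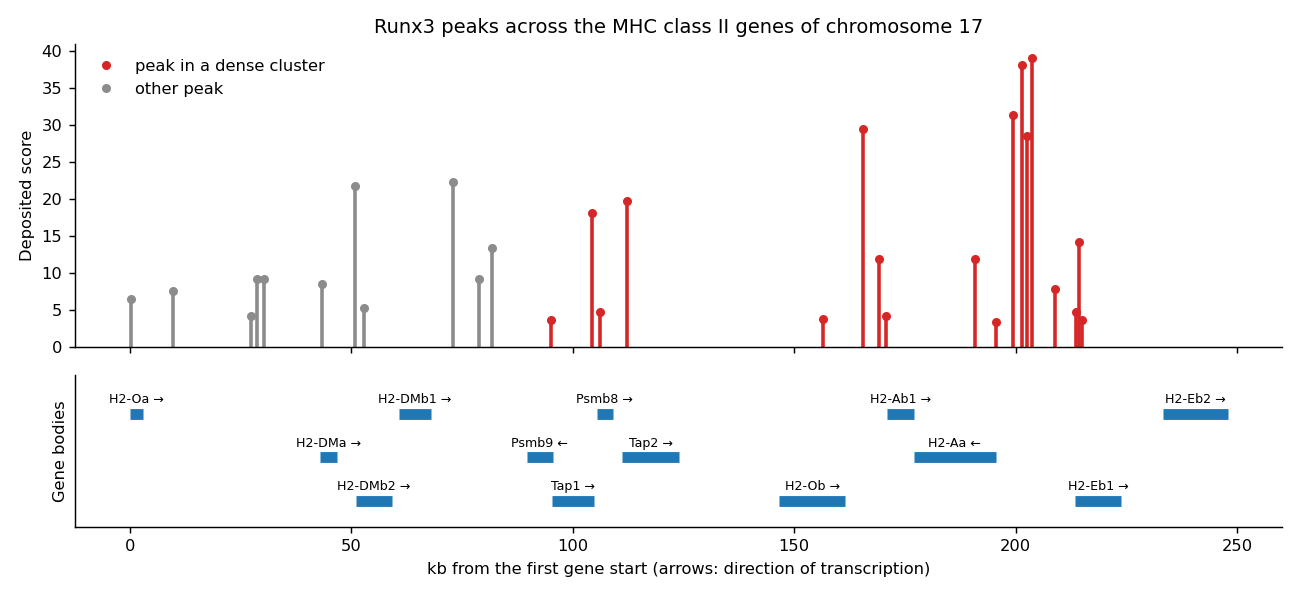
Deposited score of each Runx3 peak (top) and gene bodies (bottom, arrows give the direction of transcription) against distance in kb from the start of H2-Oa. Red, peaks in the 3 dense clusters; gray, the other 11 peaks. The highest scores of the region, up to 38.99, stand between H2-Aa and H2-Eb1, and the peaks at the starts of both genes are lower.

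Among other clusters rich in peaks, 10 lay across Ly9 and Slamf7 (chr1:173534877-173574195), which encode receptors of the SLAM family on leukocytes. Here the strongest peak, 42.13, was at the Ly9 start (5 bp upstream), and the next, 28.65, was intergenic, 17381 bp downstream of the Slamf7 start. Of its 10 peaks, 9 held TGTGGT. The other cluster of 10 (chr15:72965390-73016006) ran through Eif2c2, which encodes the small-RNA effector Argonaute 2. Its strongest peak, 39.19, was in intron 1, 22735 bp from the start, and the peak at the promoter scored 6.57. Here 8 of the 10 peaks held TGTGGT.

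Mcl1, which encodes an anti-apoptotic protein of the Bcl-2 family, had 9 peaks (chr3:95449150-95478599, summed score 161.61). The peaks at 6294 and 13258 bp upstream of its start scored 46.24 and 43.52, and the promoter peak scored 14.96. A cluster of 9 peaks over Rnaseh2a, Prdx2 and Junb (chr8:87489941-87514466) had its strongest peak, 29.48, downstream of Junb, which encodes a subunit of the AP-1 transcription factor, at 2114 bp from the Junb start. The last cluster of 9 (chr10:79604067-79635888) covered Atp5d, Midn, Cirbp and 1600002K03Rik. It had a summed score of only 70.75, 6 of its 9 peaks were within 1 kb of a TSS, and none reached the upper quartile of the list.

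Of the 14 clusters of 8 peaks, the one at Nr4a1 had the highest summed score, 254.78 (chr15:101074340-101106619). Nr4a1 encodes an orphan nuclear receptor that is induced early after stimulation. Its strongest peak, 91.88, lay 20320 bp upstream and the next, 55.82, lay further upstream, while the promoter peak scored 7.84. The strongest Nr4a1 peak held no TGTGGT in its 660 bp but had 2 copies of TGACGT, the core of sites for factors of the ATF/CREB family. The study found TGACGT enriched in Runx3-bound regions and assigned it to the DC factor zDC (Zbtb46). One of the 2 copies in the Nr4a1 peak, 5 bp from the peak centre, is shown in capitals.
Nr4a1, chr15:101076929-101076994: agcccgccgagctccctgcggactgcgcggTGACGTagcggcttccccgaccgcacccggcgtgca

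The cluster of 8 between Rac2 and Cyth4 (chr15:78394322-78430063, summed score 243.08) had a peak of 77.43 at 7766 bp upstream of Cyth4. Rac2 is a small GTPase of blood cells, and Cyth4 is an activator of ARF GTPases. The starts of both genes had peaks, 32.29 at Rac2 and 15.73 at Cyth4. The last clusters in the 10 with most peaks, 8 each, were at Lrrc33 and Bex6 (summed score 192.25) and at BC013712 (191.27). Their strongest peaks, 49.02 and 54.26, were intergenic.

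**Figure D3:**
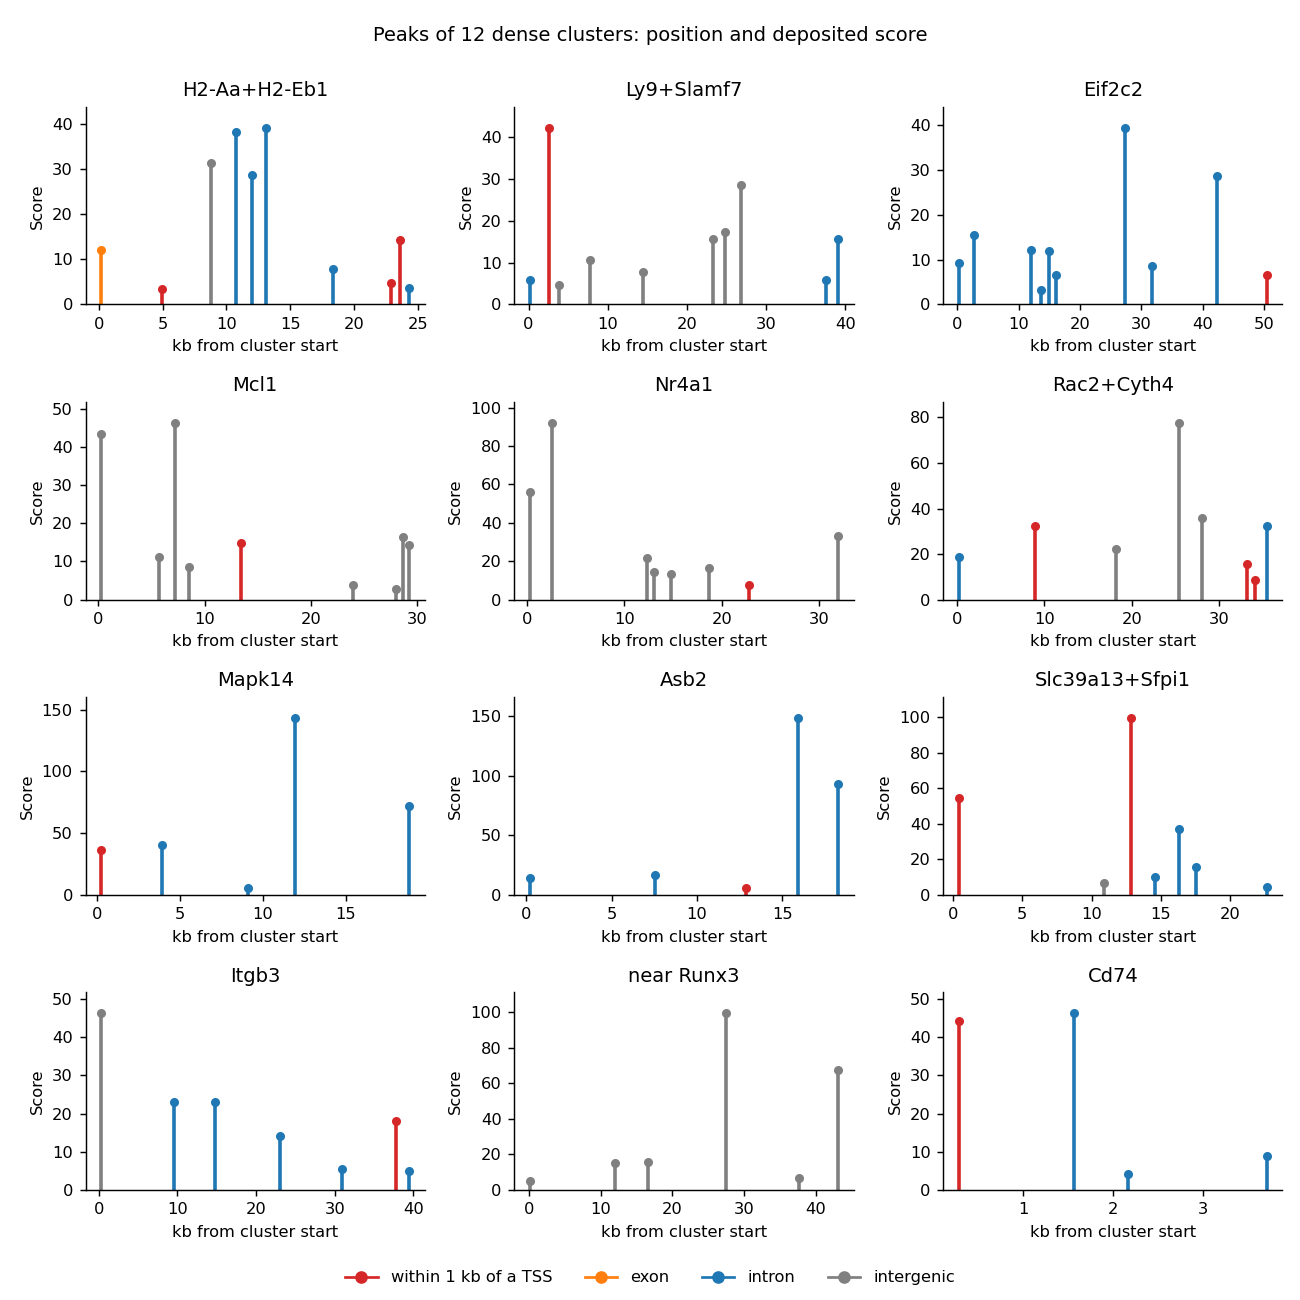
Position in kb from the cluster start (x) and deposited score (y) of every peak in 12 clusters. Colors give the location of the peak. In H2-Aa+H2-Eb1, Eif2c2, Mcl1, Nr4a1, Mapk14 and Asb2 the promoter peaks are lower than a distal peak, whereas in Ly9+Slamf7 and Slc39a13+Sfpi1 the highest peak is within 1 kb of a TSS.

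The median summed score was 72.0 in clusters of 4 peaks, 85.6 in clusters of 5, 120 in clusters of 6 and 154 in clusters of 7 or more. A sum grows with the number of peaks added. The median score within a cluster had medians of 13.6, 12.4, 16.1 and 13.7 in these size groups, without such a rise. Single clusters of few peaks reached the highest sums. Mapk14, which encodes the stress kinase p38α, led with 296.55 from 5 peaks (chr17:28827873-28847227). Its peaks scored 36.14 at the promoter and 40.51, 5.36, 142.96 and 71.58 in intron 2, and all 5 held TGTGGT. Asb2, which encodes a substrate-binding subunit of a ubiquitin ligase, had 277.05 from 5 peaks (chr12:104563719-104582318). Scores of 148.1 and 93.11 stood in intron 2 of its longest transcript, and its peak 29 bp upstream of a start scored 5.36. Prkch, the gene of protein kinase C eta, had 270.33 from 5 peaks (chr12:74685357-74711450), 4 of which scored between 49.38 and 87.27.

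The cluster at Dmwd and Dmpk (chr7:19662825-19674523) was different in shape, since 1 peak of 226.84 at 98 bp upstream of a Dmwd start held 83.8% of its summed score of 270.58. That peak ranked 5 in the list. Cd97, which encodes an adhesion G protein-coupled receptor, had 261.14 from 6 peaks (chr8:86260551-86273389), with 120.3 at 1039 bp upstream and 70.73 in intron 1. A cluster of 6 that reached into Pebp4 (chr14:70456598-70476685, summed score 239.21) had all of its peaks nearest to Egr3, an immediate early zinc finger factor, between 719 and 20208 bp upstream. Tbc1d4, which encodes a Rab GTPase-activating protein, carried 5 peaks within its introns (chr14:101902872-101915726, summed score 232.76), of which 2 scored 99.32 and 93.11.

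The longest cluster, 58.2 kb, covered Mycbp and Rragc with 6 peaks and a summed score of 89.43. Other long clusters were those at Eif2c2 (50.6 kb), over 8 genes from Slc25a22 to Tspan4 (43.9 kb), and over Fbxl18 and Actb (43.7 kb). The cluster over 8 genes had a summed score of 58.39 and a highest score of 13.43, and 5 of its 6 peaks were near a TSS.

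In the list of DC lineage transcription factors 4 of 33 genes had a cluster, beside 2.17% of all protein-coding genes. Sfpi1, the gene of the myeloid factor PU.1, shared a cluster of 7 peaks with Slc39a13 (chr2:90910321-90933144, summed score 227.55). The peak 570 bp inside Sfpi1 scored 99.32 and held 3 copies of TGTGGT, a peak 4089 bp inside scored 37.12, and the Slc39a13 promoter scored 54.74. Etv6 had 6 peaks with scores of 6.57 to 31.34, the highest at its promoter. Bach2 had 5, the highest of which (59.12) was in intron 1. Bcl6 had 4, none above 18.95. No cluster overlapped a gene of the Runx family or its partners (0 of 10 genes). However, 6 peaks lay upstream of Runx3 itself (chr4:134598399-134641806), between 35040 and 78041 bp from its start, with scores of 4.79, 14.96, 15.73, 99.32, 6.57 and 67.34. Of these, 5 held TGTGGT within the central 200 bp, and the strongest was the one that did not hold it at all. Another cluster, of 4 peaks (chr4:134737533-134759474, summed score 64.56), lay beyond the end of Runx3 and had a highest score of 34.2. Both were named after their values were seen.

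In a set of 22 gene lists, MHC class II presentation had the highest share of genes with a cluster under the rule used here. When only scores at or above the list median were chained, 1 of its 14 genes was left, a lower share than for costimulation (2 of 15), NF-κB (2 of 20) and integrins (2 of 26). The cluster at H2-Aa and H2-Eb1 remained there, but its shorter span no longer met the body of H2-Aa. Of 22367 protein-coding genes, 485 (2.17%) overlapped a cluster and 407 (1.82%) had a TSS inside one. Among MHC class II genes this was 8 of 14 (57.1%): H2-Aa, H2-Ab1, H2-Eb1 and H2-Ob on chromosome 17, and Cd74, Ciita, Lgmn and Ifi30 elsewhere. The first 4 genes are neighbors that share 2 clusters, so they are not independent counts. Cd74, the invariant chain, had the densest cluster by covered length, with 60.2% of its 4.13 kb under 4 peaks that scored 44.17 at the promoter and 46.24, 4.23 and 8.74 in intron 1. Ciita, the transactivator of class II genes, had a peak of 91.32 at 188 bp upstream of one of its starts beside 3 peaks of 7.2 to 11.96. The lysosomal protease gene Lgmn had 6 peaks with 2 equal highest scores of 35.17. Ifi30, a lysosomal thiol reductase, was 1 of 4 genes under a cluster whose strongest peak (66.99) lay nearest Pik3r2.

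MHC class I presentation had a cluster at 5 of 18 genes (27.8%), of which Tap1, Tap2, Psmb8 and Psmb9 shared 1 cluster and Tapbp lay in another. NF-κB signaling and its feedback had 5 of 20. Traf1, an adaptor of tumor necrosis factor receptors, had 5 peaks of 23.19 to 70.43, all at or above the upper quartile of the list. The others were Nfkbie, Nfkbid, Tnip3 and Map3k8. Integrins and adhesion molecules had 5 of 26 (19.2%), namely Itgax, Itgb2, Itgb3, Icam1 and Selplg. Toll-like receptor signaling had 4 of 22 (18.2%), namely the adaptor Myd88, the IRAK family members Irak2 and Irak3 and the receptor chaperone Unc93b1. Irak3 had a peak of 109.45 in intron 1.

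Further lists were costimulation (Cd83 and Slamf7, 2 of 15), growth factor and cytokine receptors (Flt3, Il1r2, Il17ra and Il21r, 4 of 30), DC lineage factors (4 of 33, above), the Notch pathway (Dtx1 and Dtx4, 2 of 17), lectin, Fc and uptake receptors (Sirpa and Havcr2, 2 of 29), the TGF-β pathway (Smad3, 1 of 18) and chemokine and migration receptors (Ccr6, 1 of 24). Cd83 had 8 peaks, of which the highest (51.11) lay 6516 bp upstream, and Smad3 had 5 within its introns, up to 55.82. STAT and SOCS genes had 0 of 15. Markers of CD4+ DC had 3 of 9 (Itgax, Sirpa and Dtx1), monocytes and macrophages 1 of 11 (Cd68), and markers of T cells, B cells, CD8+ DC and plasmacytoid DC 0 of 13, 10, 9 and 8. The CD4+ DC count fell to 1 with at least 5 peaks, and to 0 when only scores at or above the list median were chained. With genes within 10 kb of a span counted, CD4+ DC markers had 5, and T cell, B cell and CD8+ DC markers 1 each. Lens crystallin and keratin genes, which were listed as a control, had 1 of 16 (Crybb1). The Crybb1 cluster also overlapped Tpst2 and held no TSS of Crybb1. Nor did the clusters at H2-Ob, Slamf7, Flt3, Il17ra, Dtx4 and Smad3 hold a TSS of these genes. Over all lists the count was 45 of 340 genes (13.2%). The lists were written by hand with earlier results of these data known, so these shares describe the clusters and are not evidence about a pathway. Genes with a cluster had a median body of 17.2 kb, against 15.4 kb over all protein-coding genes.

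**Figure D4:**
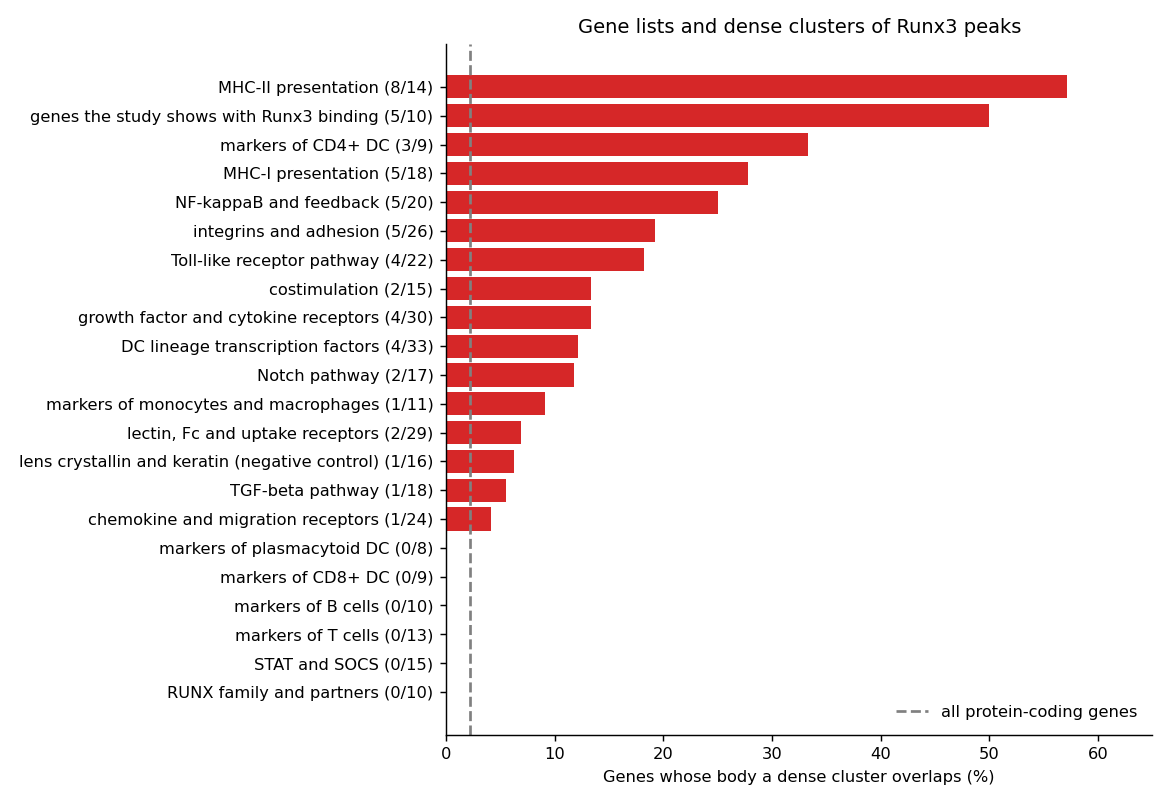
Percent of the genes of each list whose body a dense cluster overlaps, with the number of genes in brackets. The dashed line is the 2.17% of all protein-coding genes. MHC-II presentation (8 of 14) is highest, and 6 lists have no overlapped gene.

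A list of 10 genes was taken from the study's account of Runx3 binding on the same peaks, with H2-Aa, H2-Ab1, H2-Eb1 and H2-Eb2 standing for the classical MHC class II genes that it treats as a group. Of these, 5 overlapped a cluster: H2-Aa, H2-Ab1, H2-Eb1, Flt3 and Itgax. Flt3, the receptor of a growth factor needed for DC development, had 7 peaks in its body, and 4 of them formed a cluster of 27.2 kb (chr5:148150823-148177991). One of these, in exon 10, scored 68.13, and the other 3 scored 3.68 to 10.53. Itgax, which encodes the CD11c used to sort the cells, had 4 peaks in 5.26 kb (chr7:135272274-135277535). The highest, 33.14, was in exon 8, and the promoter peaks scored 7.89 and 10.29. Peaks in the bodies of Clec12a, Cx3cr1, Rbpj and Itgam numbered 1, 3, 1 and 2, in chains of no more than 3, and H2-Eb2 had none.

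Clusters were often, but not always, at genes. Of the 378 clusters, 69 overlapped no protein-coding gene, 200 overlapped 1, 67 overlapped 2 and 42 overlapped at least 3, with 8 as the most. In 76 the whole cluster lay inside 1 gene body. Those that overlapped no gene had their nearest peak a median of 28.8 kb from a protein-coding TSS. Beside the one upstream of Runx3, those with the highest summed scores, named after their values were seen, lay nearest Tomm20 (248.66), Bzrap1 (226.58), Cdkn2aipnl (193.97) and Ifitm3 (182.86). In the cluster nearest Tomm20, whose closest peak was 113258 bp away from its start, 1 peak of 158.84 held 63.9% of the summed score. By chromosome, the density was highest on chromosomes 11 and 17, with 31.2 and 29.4 clusters per 100 Mb, and lowest on X with 1.20, where 2 clusters held 4.47% of the chromosome's peaks. Chromosomes 7, 11, 19 and 17 also had the most protein-coding genes per Mb (11.5 to 13.6), and X the fewest (5.59).

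Fewer clustered peaks were at promoters. Within 1 kb of an annotated TSS lay 27.8% of clustered peaks (95% Wilson interval 25.8 to 29.9%), 38.5% of peaks in chains of 2 or 3 (37.2 to 39.8%) and 40.0% of single peaks (38.9 to 41.1%). Introns held 35.2% of clustered peaks, intergenic sequence 34.7% and exons 2.27%, as against 30.0%, 28.4% and 2.18% of all other peaks. Peaks of 1 cluster share a locus and are not independent, so the intervals cover counting error only and the difference between the classes was not tested. In 248 clusters peaks near a TSS stood beside distal ones, and in 167 of these (67.3%) the strongest peak was distal, close to the 62.8% of distal peaks among all peaks of these clusters. A further 119 clusters held no TSS peak, and 11 held TSS peaks only.

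TGTGGT was found, on either strand, in 1029 clustered peaks (57.0%), against 54.0% of all peaks in the list, and in 42.3% within the central 200 bp, against 41.8% of all. Its share in clusters was thus close to the background of the list. Windows of the same width 10 kb downstream, left out where they met another peak, gave 1648 pairs, in which TGTGGT was in 57.0% of clustered peaks and 31.5% of windows. The peak but not its window held it in 631 pairs and the reverse held in 211, which passed a two-sided exact McNemar test (p = 2.41e-49). For the peaks outside clusters the shares were 53.5% and 30.5%. TGACGT was in 9.92% of clustered peaks, against 11.0% of all peaks. It was in 9.59% of the clustered peaks with a window and in 3.76% of the windows (151 discordant pairs against 55, p = 1.55e-11 in the same exact test), with 11.1% and 4.21% for the peaks outside clusters. In the central 200 bp TGACGT was in 5.37% of clustered peaks, against 5.87% of all peaks. Several pairs can come from 1 cluster, so these p-values are too small. The windows had the width of their peaks but were not matched for CpG content or distance to a TSS. TGACGT holds a CpG, and the part of CpG content in its excess over the windows was not tested.

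By location, 48.3% of clustered peaks away from a TSS held TGTGGT in the central 200 bp (45.6 to 51.0%), and 54.8% of the other peaks away from a TSS did (53.8 to 55.9%). Near a TSS the order was the opposite, with 26.9% (23.2 to 30.9%) of clustered and 21.4% (20.3 to 22.6%) of other peaks. This reversal was not seen with YGYGGT, a looser form of the motif in which Y stands for a pyrimidine. Its shares in the central 200 bp near a TSS were 52.6% (48.2 to 56.9%) and 56.5% (55.1 to 57.8%), in the same order. Away from a TSS they were 59.2% (56.5 to 61.8%) and 66.3% (65.3 to 67.4%). TGACGT in the whole peak was in 8.37% (6.98 to 9.99%) of clustered and 7.15% (6.61 to 7.73%) of other peaks away from a TSS. Near a TSS it was in 13.9% (11.2 to 17.2%) and 17.3% (16.3 to 18.3%). None of these interactions was tested. The median ratio of observed to expected CpG was 0.62 in clustered peaks near a TSS and 0.76 in the other peaks near a TSS.

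Within clusters, the hexamer was compared between the strongest and the weakest peak, 1 pair per cluster. It lay in the central 200 bp of 174 strongest peaks (46.0%) and 157 weakest peaks (41.5%), with 97 clusters in which only the strongest and 80 in which only the weakest held it, a difference of 4.50 percentage points that did not pass the exact McNemar test (two-sided p = 0.229). The peaks of rank 2, 3 and 4 held it in 43.4, 42.1 and 41.5%. When the whole peak was searched, the strongest peaks held it in 66.9% and the weakest in 51.6% (p = 1.31e-05 in the same exact test). However, the median width was also 560 bp in the strongest and 324 bp in the weakest peaks, and the part of width in this difference was not tested. The central 200 bp lie around the midpoint of a peak and leave out more of a wide peak than of a narrow one. The part of width in the comparison of the central 200 bp was not tested either. The looser form YGYGGT was in 74.1% of clustered peaks, against 76.6% of all peaks, and within the central 200 bp in 57.3%, against 61.8% of all. Between strongest and weakest peaks it gave 65.6% and 54.0% in the central 200 bp (p = 0.00155, exact McNemar test). In 14 clusters the weakest score was shared by several peaks, of which the first by position was taken.

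**Figure D5:**
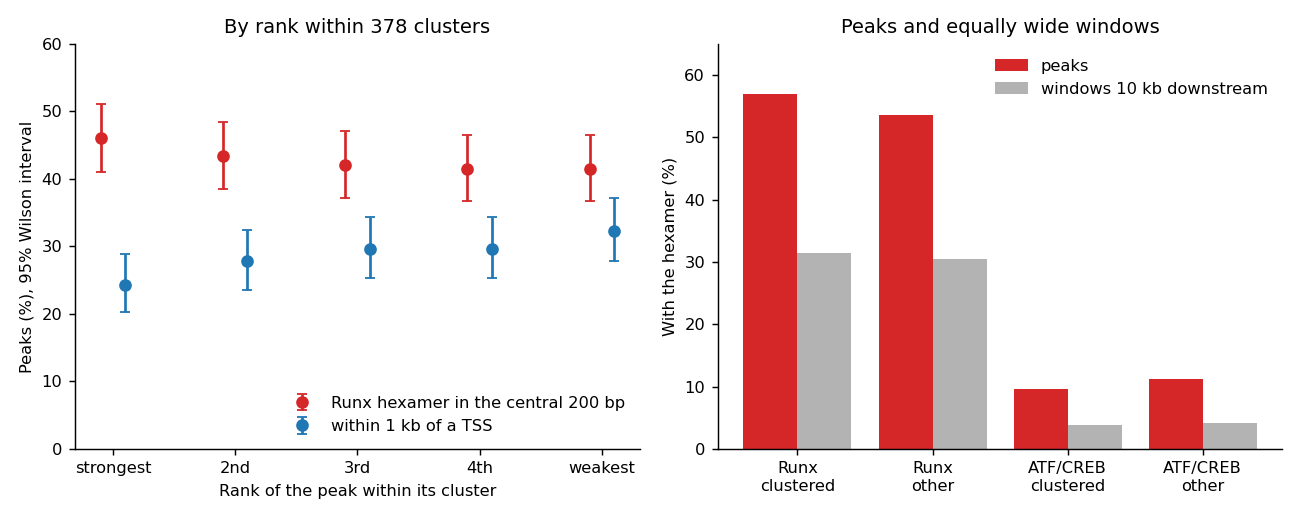
Left, percent of peaks with the Runx hexamer TGTGGT in the central 200 bp (red) or within 1 kb of a TSS (blue) by rank within the cluster; points are shares of 378 peaks and bars 95% Wilson intervals. Right, percent of peaks (red) and of equally wide windows 10 kb downstream (gray) with the Runx hexamer or the ATF/CREB hexamer TGACGT, for clustered and other peaks. The hexamer share runs from 46.0% in the strongest to 41.5% in the weakest peaks with overlapping intervals, and peaks exceed windows for both hexamers in both classes.

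At the level of whole clusters, 308 of 378 held TGTGGT in at least 2 peaks and 40 in every peak, whereas 11 held it in none. The cluster at Itgb3, the integrin β3 gene (chr11:104460886-104500525), was the largest of those named here in which every peak held it. Its 7 peaks scored 46.24, 23.13, 22.97, 14.11, 5.36, 18.13 and 4.93 in order of position, the first lying 8210 bp upstream of the gene and the others inside it. The hexamer stood within 76 bp of the centre in each of them, in the weakest peak as in the strongest. The lines below give these 7 sites in order of position on the plus strand, with the hexamer in capitals.
Itgb3 peak 1, chr11:104461174-104461219: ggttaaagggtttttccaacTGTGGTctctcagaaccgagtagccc
Itgb3 peak 2, chr11:104470485-104470530: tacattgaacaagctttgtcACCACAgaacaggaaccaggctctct
Itgb3 peak 3, chr11:104475590-104475635: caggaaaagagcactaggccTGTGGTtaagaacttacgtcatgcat
Itgb3 peak 4, chr11:104483987-104484032: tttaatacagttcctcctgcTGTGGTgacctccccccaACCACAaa
Itgb3 peak 5, chr11:104491820-104491865: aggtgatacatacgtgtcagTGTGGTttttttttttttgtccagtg
Itgb3 peak 6, chr11:104498696-104498725: acaccgctttaaACCACAgtagctccagat
Itgb3 peak 7, chr11:104500432-104500477: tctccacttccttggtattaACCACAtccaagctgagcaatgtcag

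In 14 of the 378 clusters any run of 20 bases was common to 2 peaks, and in 1 of them, nearest Klrb1b (named after its value was seen), peaks shared over 20% of such runs. TGACGT occurred in 141 clusters, and in 37 of them in at least 2 peaks.

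Some clusters lay over microRNA genes, which were looked up after the protein-coding results had been seen. Of 1577 annotated microRNA genes, 17 (1.08%) lay inside 13 clusters, and 14 of these lay in the body of a protein-coding gene. Mir142, a microRNA of blood cells, had no such host and lay within the cluster nearest Bzrap1 (chr11:87558372-87572558, 7 peaks). A peak that scored 14.2 was centered 0.197 kb from the middle of its hairpin, and the strongest peak of the cluster, 98.08, lay 7.68 kb away. Mir25, Mir93 and Mir106b, which are transcribed together from an intron of Mcm7, lay in a cluster of 4 peaks with a summed score of 50.45 and a highest score of 18.95. Mir22 (45.06) and Mir26b (61.92) each lay in a cluster of 4. Mature sequences were found in the RefSeq table (GRCm38.p6) for 9 of the 17 genes. A selection of those of the microRNAs named here, both arms for Mir142 and 1 arm for each of the others, is shown with the seed, bases 2 to 8, in capitals, and miR-93-5p and miR-106b-5p share their seed.
miR-142a-5p: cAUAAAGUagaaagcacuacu
miR-142a-3p: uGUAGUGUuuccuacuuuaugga
miR-93-5p: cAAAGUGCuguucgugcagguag
miR-106b-5p: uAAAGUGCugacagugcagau
miR-25-3p: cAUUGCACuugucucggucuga
miR-22-3p: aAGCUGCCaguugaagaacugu
miR-26b-5p: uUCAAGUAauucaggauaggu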

How the data were processed

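Runx3 ChIP-seq was done by the authors on sorted splenic CD4+ DC, with 2 immunoprecipitates and 2 inputs. Per the labels, fragments of about 300 bp were read for 50 bases, base calls were made with CASAVA 1.8, reads were aligned with Bowtie to mm9, and MACS2 called peaks. The authors deposited 1 list for the pooled samples, with position and a score for each peak. The unit of the deposited score is not stated, and the settings of the peak caller are not given in the sources used here. Peak calling sets which neighbouring peaks are split or merged, and thereby the number of peaks in a cluster.

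Peaks were chained at gaps of up to 12.5 kb and clusters of 4 or more were kept (Python 3.11.15, pandas 2.3.3, scipy 1.17.1; figures with matplotlib 3.10.9). The members and gene lists were chosen with earlier results of these data known. Genes and starts came from GENCODE M1, where a gene was counted as overlapped if its body met the span from the first to the last peak. Locations were assigned in the order within 1 kb of a TSS of any gene, exon, intron, intergenic. Exon and intron numbers refer to the longest transcript. Distances run from the peak centre to the nearest TSS of a protein-coding gene, and a gene can have several. The gene symbols of the lists (2 unmatched) followed RefSeq synonyms where needed. Sequences were read from the mm9 assembly. The hexamers TGTGGT and TGACGT, and a degenerate Runx hexamer that includes the first, were searched on both strands in the whole peak or in 200 bp around its centre. Pairs were compared with two-sided exact McNemar tests at a threshold of 0.05, with no adjustment over the 3 comparisons, and shares carry 95% Wilson intervals. Chaining, searches and tests were tested on simulated data. The share of repeat-masked bases was not computed because the assembly used here carries no mask.

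Genes named are those overlapped by, or else nearest to, the 10 clusters with most peaks, the 10 with the highest summed score, the 5 longest, the 3 strongest clusters of 4 and chains of 3, genes of the lists, and genes from the study's account of binding. Others are marked as chosen after their values were seen. One of the longest clusters is not reported here.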

Additional observations from a re-analysis of the deposited data

How the results depend on the processing

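The number and size of clusters depended on the chaining rule. Against 1805 peaks in 378 clusters over 485 protein-coding genes, a gap of 5 kb gave 502 peaks in 110 clusters over 107 genes, and a gap of 25 kb gave 4130 in 763 over 1562. At least 3 peaks gave 3569 in 966 over 1153 genes, and at least 5 gave 933 in 160 over 227. Chaining only peaks with scores at or above the list median left 207 in 47 clusters over 53 genes, and at or above the upper quartile 45 in 11 over 11 genes. Joining peaks closer than 300 bp and measuring between centres each stayed within 1.5 times, as did counting genes by their TSS or within 10 kb. Allowing for chromosome Y could change nothing, because the list holds no peak there. The 45 list genes became 21 with at least 5 peaks and 12 with scores at or above the median, where MHC class II presentation had 1 of its 8 genes left and no longer the highest share. H2-Aa was lost from this count because the cluster beside it was shortened, not because that cluster was gone. Of 88 recounts of single lists, 51 stayed within 1.5 times and 37 did not. The 51 include lists with no gene under the main rule, which could only stay at 0 in the stricter recounts. The count of 51 is therefore no measure of how stable the lists with genes were.

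The difference in TGTGGT between strongest and weakest peaks, 4.50 percentage points, kept its direction in all 5 recounts. It was 15.3 points over the whole peak (p = 1.31e-05) and 11.6 for YGYGGT (p = 0.00155), past the threshold in the exact test, and between 6.09 and 8.75 points in the other 3, not past it. One of these, without clusters that had tied scores (6.09 points, exact p = 0.107), was chosen after seeing the data. Both comparisons with windows kept their direction and call with 200 bp centres, with upstream windows and, for the Runx motif, with YGYGGT. No paired analysis was possible because the list was called once on the pooled samples, and no replicate could be left out. Without read counts, the depth behind weak peaks is unknown.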

Other observations

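A cluster of 4 peaks, named after its values were seen, lay between Cd4 and Lag3 (chr6:124844032-124853947, summed score 156.14) and overlapped no gene body. CD4 is the coreceptor by which the cells were sorted, and LAG-3 is a related receptor for MHC class II. The peaks scored 9.16 and 53.66 at 6066 and 10197 bp upstream of the Cd4 start, and 90.65 and 2.67 nearer to Lag3. All 4 held TGTGGT.

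Of the 378 clusters, 11 still held 4 chained peaks when only scores at or above the upper quartile of the list were kept. Named after their values were seen, they lay at Mapk14, Prkch, Traf1, Smad3, H2-Aa and H2-Eb1, Mob3a, Elovl5, Mefv and Zfp263, Gse1, near Foxn3, and at a locus of 4 genes that includes Zfp36, which encodes an mRNA-destabilizing protein. Lcp1, Dapp1, Ptpre and 5031414D18Rik, also named after their values were seen, each overlapped 2 separate clusters. Gm20388, whose annotated body is 4434.88 kb long, overlapped 3.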
